A study of Arabidopsis thaliana with 42 samples.

Results

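A set of 10 genes of leaf starch breakdown was followed through dark-induced senescence in the *rpn12a-236* mutant and in wild type. The members are GWD1 (AT1G10760), PWD (AT5G26570), SEX4 (AT3G52180), BAM1 (AT3G23920), BAM3 (AT4G17090), ISA3 (AT4G09020), AMY3 (AT1G69830), DPE1 (AT5G64860), MEX1 (AT5G17520) and DPE2 (AT2G40840), and they were taken by name and locus from the 27050 genes of the expression table, a rule that uses no measured value. The set itself was chosen with earlier results of these data known. All 10 genes were in the table and all 10 passed the filter on low values, and none was at its lowest repeated value in any library. The study compared *rpn12a-236* (an EMS-induced mutant in the Col-0 background with a premature stop codon in RPN12a, a subunit of the 19S lid of the proteasome) with WT Col-0. The tested leaves were individually darkened leaves (IDLs), that is, single leaves covered on a plant that otherwise stays in the light. The 42 libraries formed 14 conditions of 3 replicates. They were *rpn12a-236* IDLs after 6 h, 1 d, 3 d and 6 d and *rpn12a-236* leaves in the light at 0 d, then WT IDLs after the same 4 times and WT leaves in the light at 0 d, 6 h, 1 d, 3 d and 6 d. All plants grew in short days, and each replicate was a pool of 2 leaf blades from independent plants, so that p-values measure the spread between such pools. Harvest was at 8 am for every time but 6 h, for which it was at 2 pm. The mutant is represented by 1 backcrossed EMS line, and an effect of RPN12a and of any other mutation that this line still carries cannot be told apart. No *rpn12a-236* leaves in the light after 0 d were analysed here.

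Leaf starch is built in chloroplasts by day and degraded at night. GWD1 and then PWD, both dikinases, put phosphate groups on the glucan at the granule surface, which opens it for hydrolysis, and the phosphatase SEX4 takes them off again. Beta-amylases such as BAM1 and BAM3 release maltose, the isoamylase ISA3 removes branches, the alpha-amylase AMY3 cuts within chains, and DPE1 rearranges short maltooligosaccharides. MEX1 exports maltose from the chloroplast and DPE2 metabolizes it in the cytosol.

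The values are z-scores of normalised transcript abundance, with a mean of 0 and an SD of 1 of each gene over the 42 libraries. A difference is therefore given in SDs of that gene, and it carries no fold change, no order of 2 genes in abundance and no depth of sequencing. For the same reason the leaf label could not be checked by the level of leaf genes. A gene was called changed at an adjusted p of at most 0.01 (limma, Benjamini-Hochberg over all genes tested). RPN12a itself had higher z-scores in the mutant than in WT at each of the 5 times (2.11 SDs at 0 d), so transcript of the mutated gene was still measured in the mutant. Of 3 genes known to be induced by darkness (DIN1, DIN6 and DIN10), 2 or 3 were higher in WT IDLs than in WT light leaves at each time. In bulk leaf blades, fewer cells of a type and less RNA per cell cannot be told apart.

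Between 93.6% and 99.2% of each member's variance lay between the 14 conditions. The within-group SD of the members was 0.106 (DPE2) to 0.305 (MEX1), against a median of 0.492 over genes that passed the filter on low values. The highest of the 14 means was in WT light leaves at 6 h for 7 members (GWD1, PWD, BAM3, SEX4, DPE1, ISA3 and AMY3) and in WT light leaves at 0 d for DPE2 and MEX1, while BAM1 was highest in WT IDLs at 6 d. The lowest mean was in *rpn12a-236* IDLs for 6 members (GWD1, SEX4, DPE2 and ISA3 at 6 d, MEX1 at 3 d, BAM1 at 6 h) and in WT IDLs for BAM3, DPE1 and AMY3. PWD was the exception, lowest in *rpn12a-236* at 0 d. When the 14 means of a member were put in order, neighbours whose libraries overlapped made up 4 (DPE2) to 10 (ISA3 and MEX1) of the 13 neighbouring pairs, so the order is not resolved at every step. The mean over the 10 members was 0.000984, -0.0722, -0.348, -0.853 and -1.09 in *rpn12a-236* at 0 d, 6 h, 1 d, 3 d and 6 d, against 0.875, 0.183, 0.0366, -0.772 and -0.658 in WT on the same path, and 1.21, 0.221, 0.647 and 0.625 in WT light leaves from 6 h to 6 d. The plot of members by time shows these courses library by library.

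**Figure D1:**
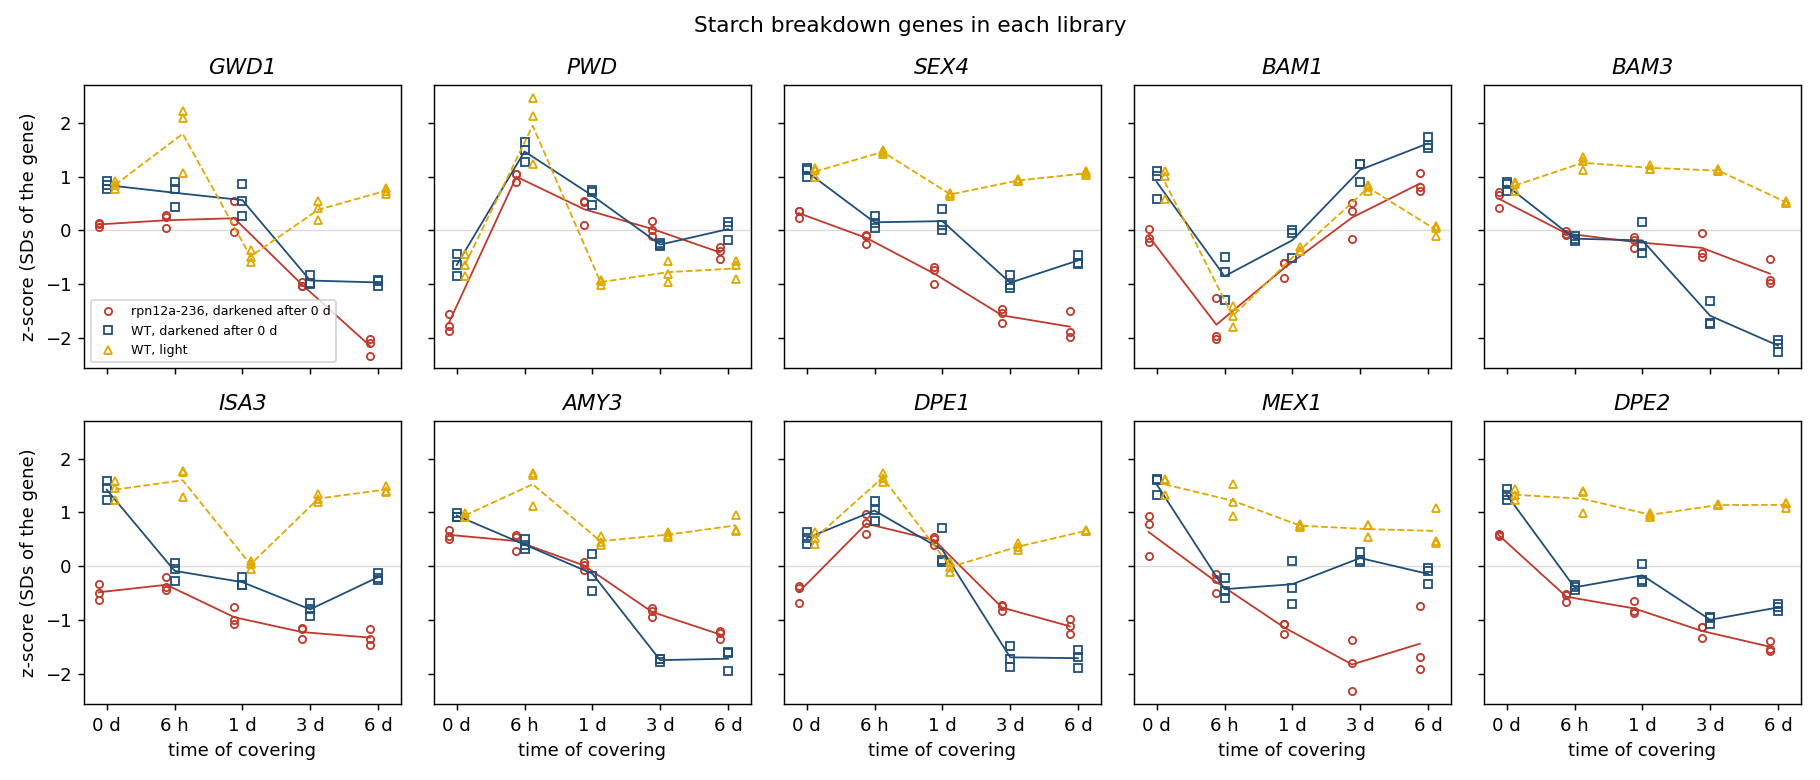
Z-score of each of the 10 genes (vertical axis, in SDs of the gene over 42 libraries) against time of covering (horizontal axis, not to scale). Red circles are *rpn12a-236* and blue squares are WT, both in the light at 0 d and darkened afterwards, and yellow triangles with a broken line are WT leaves kept in the light (the 0 d libraries of WT appear under both); symbols are libraries and lines join means of 3. Most genes fell in darkened leaves of both genotypes, BAM1 had its highest mean in WT IDLs at 6 d (1.62), and BAM3 fell to -0.804 in *rpn12a-236* IDLs at 6 d, against -2.14 in WT IDLs.

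The first comparison asks how the mutant differs from WT before darkening. At 0 d 7 of the 10 genes were lower in *rpn12a-236* and 0 were higher (limma, where also 0 were higher at an unadjusted p under 0.05), and the libraries of the 2 genotypes did not overlap for any of the 10, as was the case for 42.3% of all genes tested. Of all 24407 genes tested, 17.2% were called at this time, 7.93% higher and 9.26% lower. The median difference of the 10 was -0.827 SDs, against -0.0295 over all genes. The debranching enzyme ISA3 had z-scores of -0.494, -0.633 and -0.332 in *rpn12a-236* and 1.58, 1.45 and 1.24 in WT, a difference of -1.91 ± 0.148 (SE, adjusted p = 1.5e-09). It was the largest difference among the 10 at this time. The dikinase PWD had -1.55, -1.77 and -1.87 in *rpn12a-236* against -0.439, -0.645 and -0.849 in WT (-1.09, adjusted p = 2.6e-05), and DPE1 had -0.366, -0.687 and -0.402 against 0.412, 0.629 and 0.517 in WT (-1.004, adjusted p = 0.00015). BAM1 differed by -1.004 (adjusted p = 0.0025), SEX4 by -0.77, DPE2 by -0.75 and GWD1 by -0.73. MEX1 (-0.88, adjusted p = 0.017), AMY3 (-0.36) and BAM3 (-0.24) did not pass the test. Without WT light 0 d replicate 1, GWD1 and BAM1 no longer passed (adjusted p = 0.0113 and 0.0135), and BAM1 was also lost without WT light 0 d replicate 2 (0.0167) or *rpn12a-236* light 0 d replicate 3 (0.0127).

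At 6 h and 1 d fewer of these genes were called between the genotypes. At 6 h only BAM1 was lower in *rpn12a-236* and 0 were higher (limma, unadjusted p under 0.05 for 3 lower and 0 higher), where 11.4% of all genes were called (4.73% higher, 6.66% lower). BAM1, the beta-amylase with z-scores of -2.02, -1.97 and -1.27 in *rpn12a-236* IDLs and -0.773, -1.30 and -0.490 in WT IDLs, overlapped between the genotypes. Its difference of -0.90 SDs (adjusted p = 0.0081) did not pass with the replicate number as a block (adjusted p = 0.0118), nor without any of 4 libraries in turn: WT IDL 6 h replicate 1 (0.0294) or 3 (0.0586), or *rpn12a-236* IDL 6 h replicate 1 (0.0508) or 2 (0.0475). At 1 d 3 genes were lower in *rpn12a-236* and 0 were higher (0 also at an unadjusted p under 0.05, with 5 lower), where 22.5% of all genes were called (11% higher, 11.4% lower). They were SEX4 (-0.97), ISA3 (-0.65) and DPE2 (-0.62), the last of which metabolizes maltose outside the chloroplast. The call of ISA3 at 1 d needed *rpn12a-236* IDL 1 d replicate 3, without which the adjusted p was 0.0105.

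At 3 d and 6 d the 10 genes split by direction. BAM3, AMY3 and DPE1 were higher in *rpn12a-236* IDLs than in WT IDLs at 3 d and BAM1, SEX4 and MEX1 were lower, 6 of 10 where 27.6% of all genes were called. At 6 d BAM3 and DPE1 were higher and SEX4, ISA3, GWD1, DPE2 and MEX1 were lower, 7 of 10 where 35.1% were called. Over the 5 times 24 of 50 gene and time combinations were called, and 9 when each fit held only the 6 libraries compared (1, 0, 0, 4 and 4 from 0 d to 6 d). The median difference of the 10 was -0.142 SDs at 3 d and -0.738 at 6 d. Over all genes the split was nearly even, with 13.4% higher and 14.2% lower at 3 d and 17.2% higher and 17.9% lower at 6 d.

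BAM3, the beta-amylase known for most maltose release in mesophyll at night, had z-scores of -0.424, -0.501 and -0.0508 in *rpn12a-236* IDLs at 3 d and -1.30, -1.74 and -1.72 in WT IDLs. At 6 d it had -0.914, -0.970 and -0.530 in *rpn12a-236* IDLs against -2.26, -2.04 and -2.12 in WT IDLs. The libraries of the genotypes did not overlap at either time, and the differences were 1.26 ± 0.173 (SE, adjusted p = 4.2e-06) and 1.34 ± 0.173 (adjusted p = 1.2e-06). At 0 d, 6 h and 1 d BAM3 differed by -0.24, 0.0968 and -0.0299, none of which passed. AMY3, the plastid alpha-amylase, had -0.838, -0.937 and -0.780 in *rpn12a-236* IDLs at 3 d, against -1.73, -1.78 and -1.73 in WT IDLs (0.90, adjusted p = 7.4e-05), and 0.45 at 6 d (adjusted p = 0.021). DPE1 had -0.735, -0.843 and -0.730 in *rpn12a-236* IDLs at 3 d against -1.48, -1.72 and -1.88 in WT IDLs (0.93, adjusted p = 0.0002). Its difference of 0.59 at 6 d (adjusted p = 0.0077) was lost without any of 4 libraries in turn, namely WT IDL 6 d replicate 1 (0.0195) or 3 (0.0445) and *rpn12a-236* IDL 6 d replicate 1 (0.0369) or 3 (0.0213).

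The maltose exporter MEX1 was lower in the mutant at both late times. It had -1.79, -1.38 and -2.31 in *rpn12a-236* IDLs at 3 d and 0.107, 0.0774 and 0.268 in WT IDLs, a difference of -1.98 ± 0.271 (SE, adjusted p = 4.2e-06) and the largest of the 10 at that time. At 6 d it had -1.90, -0.734 and -1.69 in *rpn12a-236* IDLs, against -0.0821, -0.0285 and -0.323 in WT IDLs (-1.30, adjusted p = 0.00039). The mutant libraries spread more widely than those of WT but stayed below them. SEX4 had -1.89, -1.50 and -1.98 in *rpn12a-236* IDLs at 6 d against -0.461, -0.598 and -0.621 in WT IDLs (-1.23, adjusted p = 5.8e-07) and differed by -0.61 at 3 d, a call lost without WT IDL 3 d replicate 1 (adjusted p = 0.0166) or *rpn12a-236* IDL 3 d replicate 3 (0.0191). ISA3 had -1.16, -1.36 and -1.46 in *rpn12a-236* IDLs at 6 d, against -0.259, -0.134 and -0.223 in WT IDLs (-1.12, adjusted p = 1.4e-06). SEX4 was called lower in the mutant at 4 of the 5 times, ISA3, BAM1 and DPE2 at 3 and GWD1 and MEX1 at 2.

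GWD1, which starts glucan phosphorylation, differed between the genotypes at 6 d and not detectably at 3 d. Its z-scores at 6 d were -2.08, -2.33 and -2.02 in *rpn12a-236* IDLs, against -0.922, -0.948 and -1.03 in WT IDLs (-1.18, adjusted p = 4e-06). At 3 d they were -1.03, -0.952 and -1.04 in *rpn12a-236* IDLs and -0.821, -0.999 and -0.977 in WT IDLs, where the difference was -0.076 with a 95% interval of -0.42 to 0.27. BAM1 had 0.356, 0.517 and -0.161 in *rpn12a-236* IDLs at 3 d against 0.901, 1.24 and 1.23 in WT IDLs (-0.89, adjusted p = 0.0043), a call lost without *rpn12a-236* IDL 3 d replicate 3 (0.0393) or WT IDL 3 d replicate 2 (0.0202) or 3 (0.0199). At 6 d BAM1 differed by -0.746, with libraries of 0.739 to 1.06 in *rpn12a-236* and 1.53 to 1.73 in WT, and did not pass in the main fit. It passed with all 42 libraries in the fit (adjusted p = 0.0040), without moderation of variances (0.0096) and with values in within-group SDs (0.00040). DPE2 differed by -0.73 at 6 d (adjusted p = 6.1e-05) and PWD by 0.29 and -0.43 at 3 d and 6 d, neither of which passed.

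Markers of leaf cell types also differed between the genotypes at some times. Over all genes 7.93%, 13.4% and 17.2% were called higher at 0 d, 3 d and 6 d, and 9.26%, 14.2% and 17.9% lower. The mean z-score of 4 vascular markers at 3 d was 0.557 to 1.02 in *rpn12a-236* libraries, against -1.11 to -0.937 in WT libraries, with 3 of the 4 called higher. For 4 mesophyll markers at 6 d it was -1.29 to -0.812 in *rpn12a-236* and -1.95 to -1.62 in WT, with 2 of 4 called higher, and for 4 guard cell markers at 0 d it was 0.600 to 1.22 in *rpn12a-236* and -0.403 to 0.149 in WT, with 2 of 4 called higher. At 1 d 2 of 4 markers were called higher in each set and 0 lower (limma, also 0 lower at an unadjusted p under 0.05). Over all genes 11% were called higher and 11.4% lower at that time. Set means at 1 d were 0.718 to 0.912 (vascular), 0.583 to 0.904 (guard cell), 0.363 to 0.618 (epidermis) and -0.0228 to 0.197 (mesophyll) in *rpn12a-236*. In WT they were -0.553 to -0.216, -0.956 to -0.136, -0.334 to 0.140 and -0.603 to -0.0923. These sets did not differ alike at every time. At 6 d 1 vascular marker was higher and 1 lower, with means of 0.382 to 1.31 in *rpn12a-236* and 0.422 to 1.09 in WT. Of the guard cell markers, 1 was higher and 1 lower at 3 d, and 0 were called at 6 d (limma, also 0 at an unadjusted p under 0.05). Of the mesophyll markers, 0 were called at 0 d (limma, 1 lower at an unadjusted p under 0.05). Of 4 epidermis markers, 0 were called at 0 d (limma, 2 lower at an unadjusted p under 0.05), while at 6 d 1 was higher and 2 were lower. Their mean at 6 d was -1.50 to -1.27 in *rpn12a-236* libraries, against -0.937 to -0.571 in WT libraries. The part of cell makeup in the differences of the starch genes was not tested.

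**Figure D2:**
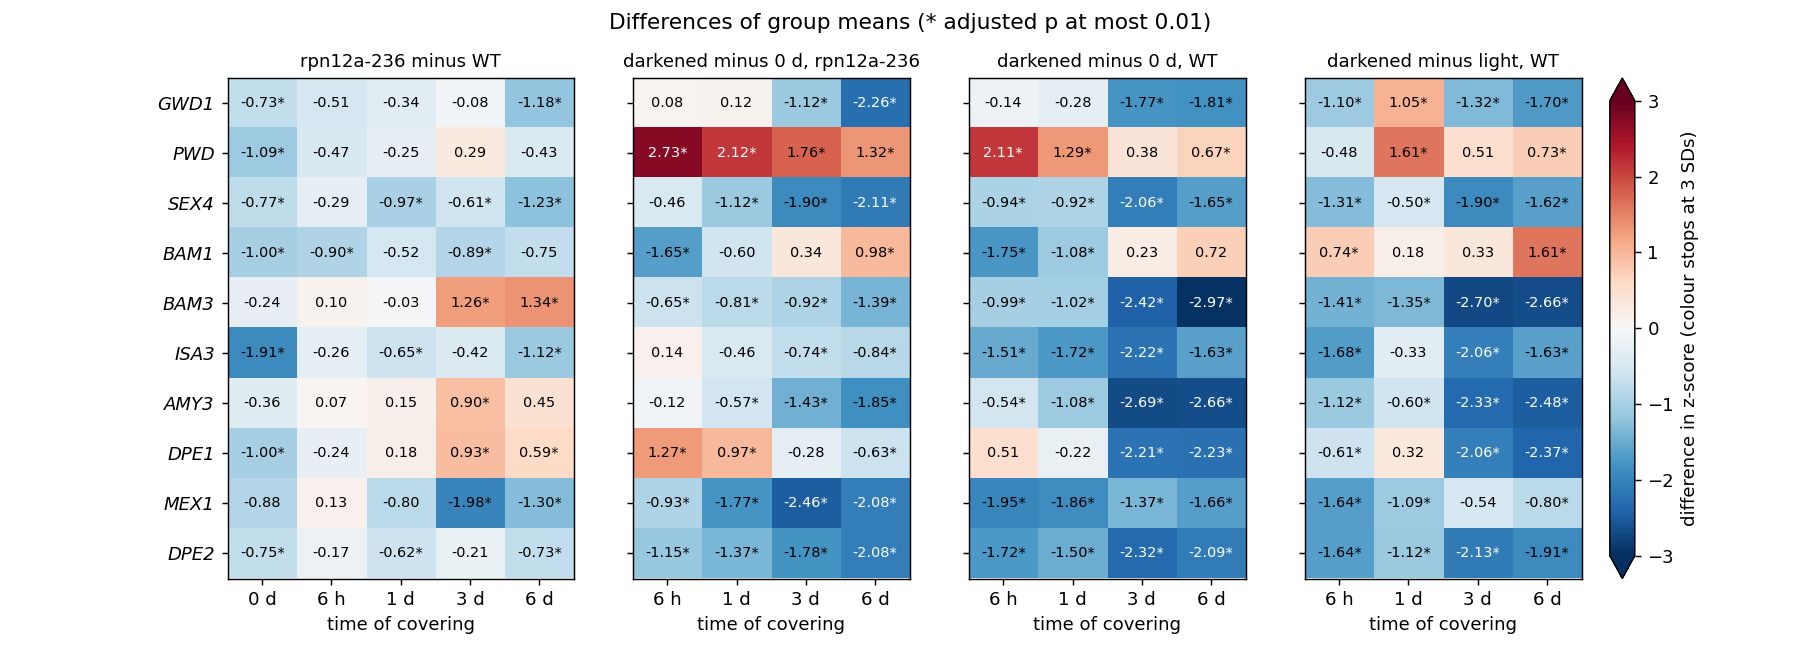
Difference of group means in SDs of the gene (colour and printed value) for the 10 genes (rows) at each time of covering (columns). The 4 panels show *rpn12a-236* minus WT, darkened minus 0 d in *rpn12a-236*, darkened minus 0 d in WT, and darkened minus light of the same time in WT; a star marks an adjusted p of at most 0.01, and BAM3 at 3 d and 6 d (1.26 and 1.34) is the strongest red of the first panel.

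The next comparison asks how each genotype changed in darkness, relative to its own leaves at 0 d. In *rpn12a-236* 31 of 40 gene and time combinations were called, with 4, 5, 7 and 8 genes lower and 2, 2, 1 and 2 higher at 6 h, 1 d, 3 d and 6 d, where 34.9%, 43%, 46.7% and 50.7% of all genes were called. These shares were made up of 18.4%, 22.8%, 24.7% and 26.7% lower and 16.5%, 20.2%, 22% and 24% higher. In WT 33 of 40 were called, with 7, 7, 8 and 8 lower and 1, 1, 0 and 1 higher, where 39.1%, 41.7%, 46.8% and 50% of all genes were called (20.4%, 22%, 24.6% and 26.2% lower, 18.7%, 19.7%, 22.2% and 23.8% higher). At 3 d in WT, where the count of higher genes was 0, PWD was higher at an unadjusted p under 0.05. The median difference of the 10 at 6 d was -1.62 SDs in *rpn12a-236* and -1.74 in WT. Cell type markers went in different directions. At 6 d 4 of 4 mesophyll markers were lower than at 0 d in both genotypes (median difference -2.13 SDs in *rpn12a-236* and -2.78 in WT), as were 3 of 4 epidermis markers (-2.41 and -1.97), while 3 of 4 vascular markers in *rpn12a-236* (with 1 lower) and 2 of 4 in WT were higher. Of 4 guard cell markers, 1 was higher and 1 lower in each genotype (median difference -1.34 SDs in *rpn12a-236* and 0.265 in WT). The part of cell makeup in the changes of the starch genes was not tested. Both sets of comparisons share their 0 d libraries across times.

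DPE2 fell at all 4 times in both genotypes. Its differences were -1.15 to -2.08 SDs in *rpn12a-236* and -1.50 to -2.32 in WT. BAM3 also fell at all 4 times, by 0.65 to 1.39 SDs in *rpn12a-236* and by 0.99 to 2.97 in WT. The last value, at 6 d, was the largest of any of the 10 genes against 0 d. AMY3 fell by 1.85 SDs in *rpn12a-236* and by 2.66 in WT at 6 d, SEX4 by 2.11 and 1.65, GWD1 by 2.26 and 1.81, and MEX1 by 2.08 and 1.66. PWD was the only gene of the 10 that was higher at all 4 times in *rpn12a-236* (by 2.73, 2.12, 1.76 and 1.32 SDs). In WT PWD was higher by 2.11, 1.29 and 0.67 at 6 h, 1 d and 6 d and by 0.38 at 3 d, which did not pass (adjusted p = 0.052). BAM1, whose product is known for starch breakdown in guard cells and under stress, was lower at 6 h in both genotypes (-1.65 and -1.75) and higher at 6 d in *rpn12a-236* (0.98, adjusted p = 0.00096), with 0.72 in WT (adjusted p = 0.011). DPE1 rose in *rpn12a-236* by 1.27 at 6 h and 0.97 at 1 d, and in WT it differed by 0.51 (adjusted p = 0.018) and -0.22 at these times.

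Several of these calls were lost when 1 library was left out. In *rpn12a-236* BAM3 at 6 h was lost without *rpn12a-236* light 0 d replicate 2 (adjusted p = 0.0202) or 3 (0.0151) or *rpn12a-236* IDL 6 h replicate 2 (0.0117) or 3 (0.0125). MEX1 at 6 h was lost without any of 5 of its 6 libraries (all but *rpn12a-236* light 0 d replicate 3), at adjusted p = 0.0113 to 0.0417. AMY3 at 1 d was lost without *rpn12a-236* light 0 d replicate 3 (0.0171) or *rpn12a-236* IDL 1 d replicate 3 (0.0154), and DPE1 at 6 d without *rpn12a-236* light 0 d replicate 1 (0.0167) or 3 (0.0148) or *rpn12a-236* IDL 6 d replicate 2 (0.0161). ISA3 at 1 d (-0.46, adjusted p = 0.011) passed without *rpn12a-236* light 0 d replicate 2 (0.0099) or *rpn12a-236* IDL 1 d replicate 2 (0.0067). In WT AMY3 at 6 h was lost without any of 5 of its 6 libraries (all but WT IDL 6 h replicate 1), at adjusted p = 0.0138 to 0.0256, and PWD at 6 d without WT light 0 d replicate 3 (0.0105).

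The interaction of genotype and darkening asks whether the change from 0 d differed between the genotypes. It was called for 12 of 40 combinations, 1, 2, 5 and 4 of the 10 genes at 6 h, 1 d, 3 d and 6 d, where 7.48%, 12.7%, 15.1% and 21.4% of all genes were called. All 12 were higher in *rpn12a-236*, meaning a smaller fall from 0 d than in WT, a larger rise, or a rise where WT fell. Over all genes 2.84%, 6.29%, 7.77% and 10.8% were higher and 4.63%, 6.44%, 7.35% and 10.6% lower at the 4 times. The count of lower interactions was 0 (limma), with 1 at an unadjusted p under 0.05 at 3 d (MEX1, -1.09, adjusted p = 0.039) and 1 at 6 d (SEX4, -0.46). The median interaction of the 10 was 0.955 SDs at 3 d, against 0.022 over all genes. With values in within-group SDs in place of z-scores 19 were called, among them MEX1 at 3 d and SEX4 at 6 d as lower. The same 6 libraries of 0 d enter the interaction at every time. As no later light leaves of *rpn12a-236* were analysed, darkening and the hour or day of harvest cannot be told apart in it. In WT light leaves alone, ISA3 changed by -1.39 SDs from 0 d to 1 d.

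DPE1 changed by -0.28 SDs in *rpn12a-236* at 3 d and by -2.21 in WT, an interaction of 1.93 ± 0.248 (SE, adjusted p = 8.1e-06). That was the largest of the 12. BAM3 changed by -0.92 in *rpn12a-236* and -2.42 in WT (interaction 1.51), AMY3 by -1.43 and -2.69 (1.25) and PWD by 1.76 and 0.38 (1.38). ISA3 was called at all 4 times, at 1.65, 1.26, 1.49 and 0.785. The interaction of ISA3 and that of BAM3 came from different courses. BAM3 did not pass the test between genotypes at 0 d and was higher in *rpn12a-236* IDLs from 3 d on, whereas ISA3 was already low in *rpn12a-236* at 0 d and its mean there stayed below that of WT at every time (-0.346, -0.949, -1.23 and -1.33 in *rpn12a-236* IDLs from 6 h to 6 d, against -0.0876, -0.298, -0.803 and -0.205 in WT IDLs). PWD and DPE1 were also lower in *rpn12a-236* at 0 d (-1.09 and -1.004), which enters their interactions. At 3 d their means were 0.0275 and -0.769 in *rpn12a-236* IDLs, against -0.265 and -1.69 in WT IDLs, and the difference of PWD did not pass. The interactions of ISA3 and AMY3 at 6 d were lost when single libraries were left out. That of ISA3 was lost without any of 7 libraries (WT light 0 d replicate 1 or 2, WT IDL 6 d replicate 1 or 3, *rpn12a-236* light 0 d replicate 1 or 2, *rpn12a-236* IDL 6 d replicate 1), at adjusted p = 0.0113 to 0.0189. That of AMY3 was lost without any of 8 (WT light 0 d replicate 1, 2 or 3, WT IDL 6 d replicate 3, *rpn12a-236* light 0 d replicate 1 or 2, *rpn12a-236* IDL 6 d replicate 1 or 3), at 0.0119 to 0.0251. PWD at 1 d (0.83, adjusted p = 0.011) passed without WT light 0 d replicate 3 (0.0083), *rpn12a-236* light 0 d replicate 1 (0.0093) or *rpn12a-236* IDL 1 d replicate 1 (0.0046).

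**Figure D3:**
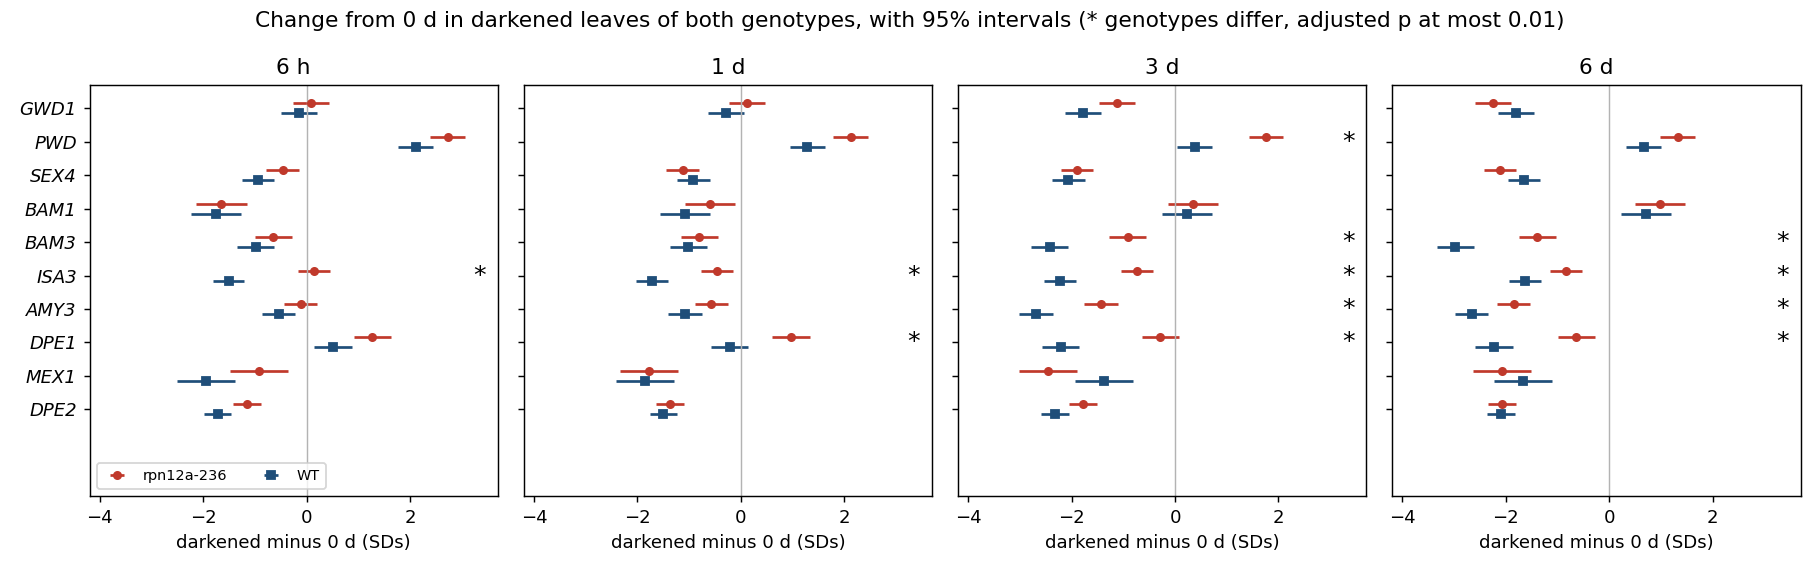
Change from 0 d in darkened leaves (horizontal axis, in SDs of the gene) for the 10 genes (rows) at 6 h, 1 d, 3 d and 6 d. Red circles are *rpn12a-236*, blue squares are WT, bars are 95% intervals of the fit, and a star marks genes whose change differed between the genotypes; at 3 d the red points of PWD, BAM3, ISA3, AMY3 and DPE1 lie to the right of the blue ones by 1.25 to 1.93 SDs.

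WT leaves kept in the light give a second reference, one that shares the time point and the hour of harvest with the darkened leaves. The leaves at 0 d share the hour with darkened leaves at 1 d, 3 d and 6 d but not at 6 h. In WT IDLs against WT light leaves of the same time, 8, 5, 7 and 8 of the 10 genes were lower and 1, 2, 0 and 2 were higher at 6 h, 1 d, 3 d and 6 d, where 36.5%, 40.9%, 45.5% and 47.2% of all genes were called (18.4%, 22.3%, 24.7% and 25% lower, 18.1%, 18.7%, 20.8% and 22.1% higher). At 3 d, where 0 were higher, PWD (0.51) was higher at an unadjusted p under 0.05. Among the lower genes, BAM3 had -1.30, -1.74 and -1.72 in WT IDLs at 3 d and 1.10, 1.10 and 1.13 in WT light leaves (-2.70 ± 0.152, SE, adjusted p = 2.2e-11), the largest difference of the 40. AMY3 had -1.59, -1.61 and -1.96 in WT IDLs at 6 d against 0.679, 0.652 and 0.943 in WT light leaves (-2.48), and DPE1 had -1.69, -1.55 and -1.89 against 0.649, 0.664 and 0.657 (-2.37). DPE2 (-1.12 to -2.13), SEX4 (-0.50 to -1.90) and BAM3 (-1.35 to -2.70) were lower at all 4 times. BAM1 had 1.53, 1.59 and 1.73 in WT IDLs at 6 d and -0.107, 0.0875 and 0.0450 in WT light leaves (1.61, adjusted p = 4.5e-07), without overlap. It and PWD (0.73, adjusted p = 0.0083) were the higher genes at 6 d.

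The reference decided the sign or the call for 4 genes at 6 h (PWD, BAM1, GWD1 and DPE1) and for 4 at 1 d (GWD1, BAM1, ISA3 and DPE1). At 6 h PWD had 1.65, 1.26 and 1.49 in WT IDLs, 2.13, 2.46 and 1.24 in WT light leaves of the same hour, and -0.439, -0.645 and -0.849 in WT light leaves at 0 d. It was thus 2.11 SDs higher in the IDLs than at 0 d and differed by -0.48 from light leaves of the same hour, which did not pass (adjusted p = 0.086). BAM1 had -0.773, -1.30 and -0.490 in WT IDLs at 6 h, -1.60, -1.40 and -1.79 in WT light leaves of that hour and 1.02, 1.10 and 0.575 at 0 d. It was lower than at 0 d (-1.75 SDs) and higher by 0.74 than in light leaves of the same hour (adjusted p = 0.0038). GWD1 at 1 d had 0.548, 0.864 and 0.273 in WT IDLs, -0.496, -0.362 and -0.597 in WT light leaves of that time and 0.916, 0.848 and 0.761 at 0 d. It differed by -0.28 from 0 d, which did not pass, and was higher by 1.05 than light leaves at 1 d (adjusted p = 0.00048). At 6 h GWD1 differed by -0.14 from 0 d and was lower than light leaves of that hour (-1.10), and DPE1 differed by 0.51 from 0 d and was lower than light leaves (-0.61). At 1 d ISA3 was lower than at 0 d (-1.72) and differed by -0.33 from light leaves (adjusted p = 0.071), and BAM1 was lower than at 0 d (-1.08) and differed by 0.18 from light leaves. The mean of DPE1 in WT IDLs at 1 d (0.303) lay below that at 0 d (0.519) and above that of light leaves at 1 d (-0.0144), and neither difference passed. Later, MEX1 at 3 d was called against 0 d (-1.37) and not against light leaves (-0.54, adjusted p = 0.034), and BAM1 at 6 d was called against light leaves alone. With only the 6 libraries of the comparison in the fit, the calls at 6 h against light leaves did not pass for GWD1 (adjusted p = 0.068), BAM1 (0.109) or DPE1 (0.101). For *rpn12a-236* the time of day and the darkening cannot be told apart at 6 h.

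WT light leaves themselves differed from 0 d at 2 of the 4 later times. At 6 h, taken in the afternoon, PWD (2.59), DPE1 (1.12) and GWD1 (0.95) were higher and BAM1 was lower (-2.49, adjusted p = 3.6e-09), 4 of 10 where 23.7% of all genes were called (10.3% higher, 13.4% lower). At 1 d, taken at 8 am like the leaves at 0 d, ISA3 (-1.39), GWD1 (-1.33) and BAM1 (-1.26) were lower and 0 were higher (limma, with 1 higher and 8 lower at an unadjusted p under 0.05), where 3.23% of all genes were called (1.23% higher, 1.99% lower). ISA3 had 0.0466, 0.0969 and -0.0494 in WT light leaves at 1 d, against 1.58, 1.45 and 1.24 at 0 d. At 3 d and 6 d 0 of the 10 were called (limma, 1 and 2 at an unadjusted p under 0.05, all lower), where 1.08% (0.526% higher, 0.55% lower) and 1.27% (0.414% higher, 0.857% lower) of all genes were. The day on which leaves were taken and the time in the experiment cannot be told apart.

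Several of these calls depended on single libraries. WT light 6 h replicate 3 was below the mean of the other 2 replicates for all 10 genes (median difference -0.344 SDs), and so was WT light 0 d replicate 3 (-0.145). WT IDL 1 d replicate 2 was above the mean of the other 2 for 9 of the 10 genes (0.401) and WT IDL 1 d replicate 3 was below it for 9 (-0.303). Without WT light 6 h replicate 3, PWD was lower in WT IDLs than in light leaves at 6 h (-0.83 SDs, adjusted p = 0.00059), AMY3 was higher in light leaves at 6 h than at 0 d by 0.78 (adjusted p = 0.0014), and the call of BAM1 in WT IDLs against light leaves was lost (adjusted p = 0.0179). BAM1 was also lost without WT light 6 h replicate 1 (0.0108) or WT IDL 6 h replicate 1 (0.0159) or 3 (0.0327). DPE1 at 6 h (-0.61) was lost without WT light 6 h replicate 1 (0.0128) or 2 (0.0163) or WT IDL 6 h replicate 2 (0.0119) or 3 (0.0280), and GWD1 in light leaves at 6 h without WT light 0 d replicate 3 (0.0101) or WT light 6 h replicate 1 (0.0152) or 2 (0.0161). At 1 d SEX4 (-0.50) was lost without replicate 1 or 3 of either WT group (0.0101 to 0.0200) and AMY3 (-0.605) without any library but WT IDL 1 d replicate 2 (0.0143 to 0.0619). At 6 d PWD was lost without any library but WT IDL 6 d replicate 3 (0.0122 to 0.0418) and MEX1 (-0.80) without WT light 6 d replicate 3 (0.0258) or WT IDL 6 d replicate 3 (0.0148). In light leaves at 6 d against 0 d, BAM1 (-0.89) passed without WT light 0 d replicate 3 (0.0085) and MEX1 (-0.87) without WT light 6 d replicate 3 (0.0074).

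**Figure D4:**
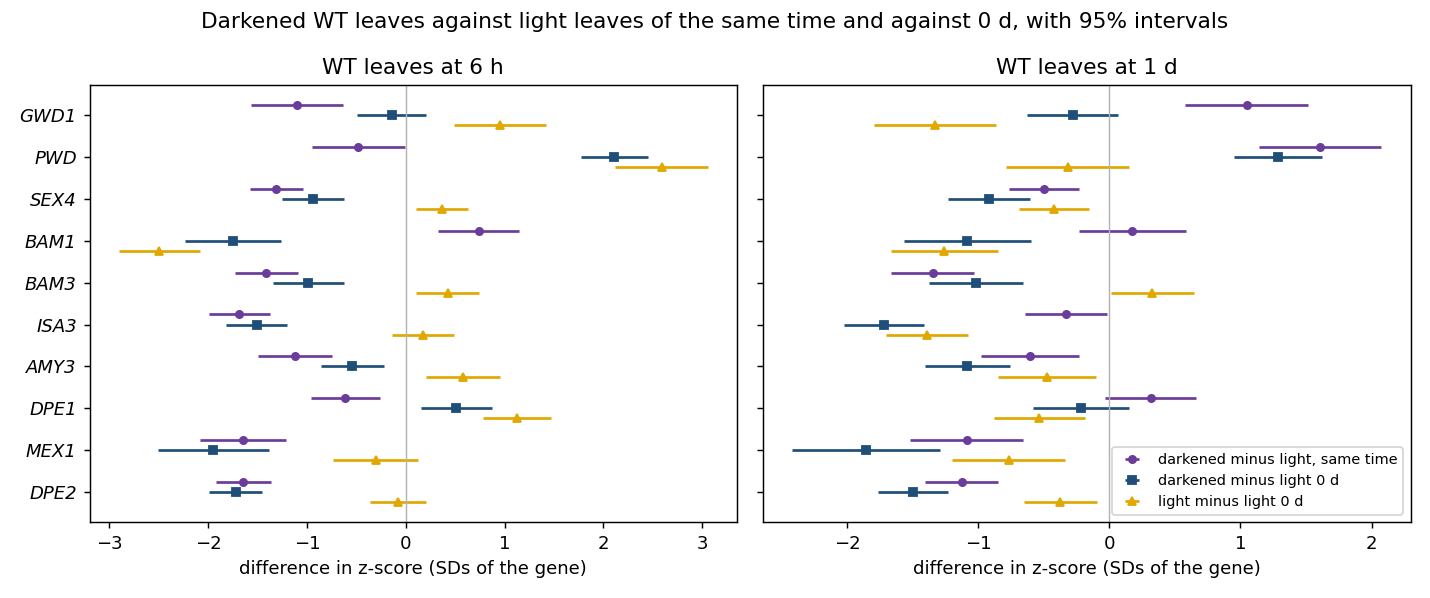
Differences in SDs of the gene (horizontal axis) for the 10 genes (rows) in WT at 6 h (left) and 1 d (right). Purple circles are IDLs minus light leaves of the same time, blue squares are IDLs minus light leaves at 0 d, yellow triangles are light leaves minus light leaves at 0 d, and bars are 95% intervals; for PWD at 6 h the blue square (2.11) lies beside the yellow triangle (2.59), and for BAM1 at 6 h the purple circle (0.74) lies right of 0 while the other points lie left of it.

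The sequence before each gene was read for short motifs linked in plants to the clock, light and sugar, because 4 members differed between WT light leaves at 6 h and at 0 d. The windows were the 300 bases before the annotated gene start in the RefSeq annotation of TAIR10.1. Motifs were searched on both strands: the evening element AAAATATCT, the CCA1 binding site AAAAATCT, the G-box CACGTG and the sugar-repressive element TTATCC, none of which contains another. The evening element was in 2 of the 10 windows (PWD and ISA3) and in 2.79% of the windows of 27443 protein-coding genes. The CCA1 binding site was in 2 (PWD and DPE2), against 7.94%, the G-box in 1 (DPE1, with 2 copies), against 7.09%, and TTATCC in 2 (GWD1 and ISA3), against 14.7%. A match is a description of letters and not of a factor bound. The windows of PWD (plus strand, chr5:9261179-9261478), BAM1 (plus strand, chr3:8640881-8641180), ISA3 (plus strand, chr4:5783609-5783908) and DPE1 (minus strand, chr5:25928880-25929179) are shown 5' to 3' with matches in capitals, PWD and BAM1 as the genes that differed most between light leaves at 6 h and 0 d, ISA3 and DPE1 for the largest interactions.
PWD: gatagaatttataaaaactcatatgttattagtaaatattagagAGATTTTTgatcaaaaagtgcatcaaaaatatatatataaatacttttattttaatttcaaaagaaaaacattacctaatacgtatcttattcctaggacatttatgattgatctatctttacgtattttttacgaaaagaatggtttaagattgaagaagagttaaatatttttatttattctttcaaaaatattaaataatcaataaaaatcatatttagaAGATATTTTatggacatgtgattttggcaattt
BAM1: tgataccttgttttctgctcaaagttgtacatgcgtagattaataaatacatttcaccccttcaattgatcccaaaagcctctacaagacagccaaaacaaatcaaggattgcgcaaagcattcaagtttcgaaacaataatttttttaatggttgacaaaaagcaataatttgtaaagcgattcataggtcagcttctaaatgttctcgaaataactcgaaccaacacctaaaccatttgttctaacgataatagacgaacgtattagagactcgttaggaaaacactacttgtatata
ISA3: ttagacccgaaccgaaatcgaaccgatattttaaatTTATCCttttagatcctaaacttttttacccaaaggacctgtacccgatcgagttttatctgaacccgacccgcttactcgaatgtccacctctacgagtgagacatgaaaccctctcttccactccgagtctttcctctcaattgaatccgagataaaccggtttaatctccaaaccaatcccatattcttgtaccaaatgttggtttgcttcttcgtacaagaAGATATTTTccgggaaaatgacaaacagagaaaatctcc
DPE1: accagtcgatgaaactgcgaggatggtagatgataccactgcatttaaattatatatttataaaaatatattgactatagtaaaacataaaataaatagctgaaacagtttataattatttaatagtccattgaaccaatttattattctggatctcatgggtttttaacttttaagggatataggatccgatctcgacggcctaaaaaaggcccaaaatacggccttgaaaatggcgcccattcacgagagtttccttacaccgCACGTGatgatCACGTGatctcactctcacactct
BAM1 had no match to the 4 motifs in this window. The windows of SEX4, DPE2 and MEX1 overlapped a neighbouring annotated gene and those of the other 7 did not. The gene bodies lie on chromosome 1 (GWD1, 3580830 to 3590928, minus strand, and AMY3, 26288228 to 26293173, minus strand), chromosome 2 (DPE2, 17044932 to 17051062, plus strand), chromosome 3 (BAM1, 8641181 to 8644449, plus strand, and SEX4, 19349600 to 19353728, minus strand), chromosome 4 (BAM3, 9604962 to 9607402, minus strand, and ISA3, 5783909 to 5789100, plus strand) and chromosome 5 (PWD, 9261479 to 9267732, plus strand, MEX1, 5772568 to 5775417, minus strand, and DPE1, 25925173 to 25928879, minus strand).

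Across the 14 condition means the members were correlated to different degrees, as a description over conditions that share hours of harvest, light or darkness and genotype. DPE2 and SEX4 were closest (r = 0.96). The r of BAM1 was below 0 with each of the other 9 but ranged from -0.77 (DPE1) to values near 0, with -0.175 for DPE2, -0.113 for ISA3 and -0.0283 for MEX1. Of 24921 genes searched, the non-member closest to BAM3 was AT4G06665 (r = 0.989), to SEX4 it was QUL1 (0.989), to DPE2 AT4G15930 (0.984), to AMY3 AT5G07860 (0.983), to BAM1 AT3G61900 (0.975), to PWD AT4G26670 (0.974), to MEX1 AT1G62780 (0.973), to DPE1 OEP6 (0.968), to ISA3 AT5G22020 (0.944) and to GWD1 AT1G15885 (0.932).

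Other genes of starch metabolism were set beside the 10. Of 18 further genes listed with breakdown, 1, 0, 1, 2 and 2 were higher and 3, 4, 6, 4 and 9 were lower in *rpn12a-236* at 0 d, 6 h, 1 d, 3 d and 6 d, where 17.2%, 11.4%, 22.5%, 27.6% and 35.1% of all genes were called in either direction. Not all of them are breakdown enzymes, as the list also holds BAM7, BAM8, AT1G42430 (listed as ESV1) and AT3G55760 (listed as LESV), so these counts do not describe breakdown alone. At 6 h, with 0 higher, 2 were higher at an unadjusted p under 0.05. BAM5, a beta-amylase found outside the chloroplast, had 3.37, 2.26 and 2.65 in *rpn12a-236* at 0 d, against 0.238, -0.171 and 0.264 in WT (2.65, adjusted p = 1.6e-06). In *rpn12a-236* IDLs at 3 d it was at its lowest repeated value of -0.984 in all 3 libraries. The alpha-amylase AMY1, which is secreted, was lower in *rpn12a-236* IDLs than in WT IDLs at 3 d (-2.17 SDs, adjusted p = 3.5e-07). AT3G55760 was lower in *rpn12a-236* IDLs at 1 d (-1.95). PHS1, the plastid glucan phosphorylase, had -1.35, -1.54 and -1.58 in WT IDLs at 6 d and between 1.199 and 1.35 in WT light leaves (-2.75, adjusted p = 1.5e-10).

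Of 20 genes of starch synthesis, 1, 0, 0, 0 and 0 were higher and 8, 1, 5, 6 and 10 were lower in *rpn12a-236* at these 5 times, beside the same shares of all genes. The 5 called at 1 d and the 6 at 3 d were near the shares called in either direction and, being all lower, stood beside 11.4% and 14.2% of all genes called lower. At an unadjusted p under 0.05, 1 was higher at each of the 4 times with a count of 0. GPT2, a plastid glucose 6-phosphate translocator, had -1.43, -1.42 and -1.34 in *rpn12a-236* at 0 d against 1.24, 0.916 and 0.735 in WT (-2.36, adjusted p = 8.6e-10). In WT IDLs 18, 16, 16 and 15 of the 20 were lower than in light leaves of the same time and 0, 1, 1 and 2 were higher (limma, also 0 at 6 h at an unadjusted p under 0.05), where 18.4%, 22.3%, 24.7% and 25% of all genes were lower and 18.1%, 18.7%, 20.8% and 22.1% higher. SBE2.1, a starch branching enzyme, was lower in WT IDLs than in light leaves at 6 h (-2.91 SDs, adjusted p = 1.6e-09) and higher in WT light leaves at 6 h than at 0 d by 2.70. ISA1, an isoamylase of amylopectin synthesis, fell by 3.28 SDs in *rpn12a-236* from 0 d to 6 d of darkness.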

How the data were processed

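RNA-seq of leaves was processed by the authors, who removed rRNA reads, trimmed with Trimmomatic, quantified TAIR10 transcripts strand-specifically with kallisto 0.43.0 and checked reads with FastQC 0.11.4. Gene values were variance-stabilized by the authors with DESeq2, blind to conditions, and scaled gene by gene. The deposited unit is a score, 1 z-score per gene and library, so read depth per library is unknown and precision was taken from the 3 replicates.

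The members and gene lists were chosen with earlier results of these data known. All 42 columns were assigned from their names. The mutant columns bear a different line label and not the name *rpn12a-236*. They were taken as this mutant because no other line besides Col-0 is present and because the paper's supplement uses the number of that label for the *rpn12a* data. The lowest z-score of a gene was treated as a floor where at least 2 libraries shared it (9514 of 27050 genes), and a gene was tested with at least 3 libraries above it. Group means were fitted with limma 3.58.1 in R 4.3.3, with variances moderated across genes and p-values adjusted after Benjamini and Hochberg across every gene tested. Genotypes, darkening against 0 d and their interaction were fitted on the 30 libraries of the time course (24407 genes), and WT light leaves on the 27 WT libraries (24166 genes). The threshold was 0.01. All members were named, with values per library for those called between genotypes or in the interaction at 2 or more times and the 3 with the largest differences in each comparison, at most 3 called genes per further list and comparison, and 1 closest gene by correlation per member. Values of further members are given where the reference or a single library decided their call. Same-numbered replicates had deviations correlated by -0.0568 to 0.106, so numbers were not treated as pairs.

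Simulated z-scores of 19891 genes had normal noise, and only the shifted genes differed between the groups compared. These genes were above their floor in more libraries than the fits required, so genes with many values at the floor were left out. Shifts of 2, 4, 6 and 8 within-group SDs in 50 genes each gave 1, 25, 48 and 50 calls between genotypes at 3 d, with 1 false call. For WT IDLs against light leaves at 6 h the calls were 0, 24, 49 and 50, with 2 false calls. In the data 27.6% of genes were called between genotypes at 3 d, so these rates need not carry over. Alternatives were other thresholds, no filter, fewer or all 42 libraries, other moderation, values in within-group SDs, a replicate block and leaving out each replicate. Of the 20 synthesis genes and the 18 further genes listed with breakdown, 17 and 15 matched a RefSeq symbol and the others are named by locus. RefSeq gives the symbol PWD also to a second locus, and the member is AT5G26570. Sequences came from the RefSeq TAIR10.1 assembly, whose annotation is not the one used for the z-scores. Python 3.11.15 and matplotlib 3.10.9 drew the plots.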

Additional observations from a re-analysis of the deposited data

Results flagged for a closer look

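The change from 0 d differed between the genotypes by a test of the interaction (limma, adjusted p at most 0.01) for 12 gene and time combinations. Each value is the change in *rpn12a-236* minus the change in WT, in SDs of the gene, and each was positive. Without later light leaves of *rpn12a-236*, darkening and the hour or day of harvest cannot be told apart in these values.

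The debranching gene ISA3 differed by 1.65 at 6 h, by 1.26 after 1 d, by 1.49 after 3 d and by 0.785 after 6 d. DPE1 differed by 1.18 after 1 d, by 1.93 after 3 d and by 1.60 after 6 d. BAM3 differed by 1.51 at 3 d and 1.58 at 6 d, and AMY3 by 1.25 at 3 d and 0.809 at 6 d. PWD differed by 1.38 at 3 d. The other members, GWD1, SEX4, BAM1, DPE2 and MEX1, had no interaction that passed at any of the 4 times.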

How the results depend on the processing

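No called difference of a member changed sign under any alternative run. With only the 6 libraries of each comparison in the fit, calls between genotypes were 9 in place of 24 and calls in WT light leaves against 0 d were 2 in place of 7, while WT IDLs against light leaves gave 25 in place of 33, with GWD1, BAM1, SEX4, DPE1 and AMY3 among the calls lost at 6 h (adjusted p = 0.0108 to 0.109). At an adjusted p of at most 0.05 the interaction gave 19 calls in place of 12 and WT light leaves gave 14. Values in within-group SDs gave 19 and 16, and no moderation of variances gave 12 in WT light leaves. The causes were not tested, other than the lower number of libraries or the threshold itself. Leaving out 1 replicate gave 22 to 24 calls between genotypes, 28 to 32 for darkening in *rpn12a-236*, 31 to 33 for darkening in WT, 10 to 13 for the interaction, 31 to 33 for WT IDLs against light leaves and 6 to 8 for WT light leaves against 0 d.

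With the replicate number as a block, 23 calls remained in count between genotypes. BAM1 at 6 h was the call lost (adjusted p = 0.0118), and no other call among the members changed. With only the 15 libraries of a genotype, BAM3 (adjusted p = 0.0135) and MEX1 (0.0329) at 6 h in *rpn12a-236* and AMY3 at 6 h in WT (0.0247) no longer passed. With 3 replicates per group, a call that is missing does not show that values were equal.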
